A study of Mus musculus with 6 samples.

Results

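The 42 genes described here encode parts of the lysosome: 11 proteases (10 cathepsins and legumain), 10 other hydrolases and cofactors, 6 membrane proteins, 12 genes of the proton pump and 3 transcription factors. They were chosen by symbol from a list of lysosome genes, and all 42 were found among the 22040 genes of the table. Their transcripts were measured by RNA sequencing of mouse white adipose tissue in 3 control samples, from mice given saline into the peritoneum, and 3 samples from mice given ginsenoside Rb1, a triterpene saponin of ginseng, by the same route at 14 mg/kg per day. "Rb1" below always means the saponin and not the retinoblastoma gene. The labels used here leave out genotype, strain, age, sex, diet, fat depot and how long the mice were treated. The series title links the work to the anti-obesity action of Rb1, and the comparison asks how these transcripts differ between Rb1 and control tissue.

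Lysosomes are acidic organelles that break down proteins, lipids, glycans and nucleic acids delivered by endocytosis, phagocytosis and autophagy. The vacuolar ATPase (V-ATPase) pumps protons into the lumen, and most cathepsins and glycosidases work best at the low pH that it makes. Transcription factors of the MiT/TFE family, Tfeb, Tfe3 and Mitf, bind a short DNA element, the CLEAR element, near many lysosome genes and raise their transcription together. In fat, macrophages are rich in lysosomes, and those that take up lipid in obese tissue are known for high levels of cathepsins, CD68 and acid lipase, while adipocytes also use lysosomes in lipid breakdown and autophagy.

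Total counts ran from 15440339 to 24501446 per sample, and the lowest count of any of the 42 genes in any sample was 158. Adipocyte markers were abundant in all 6 samples, with adiponectin (Adipoq) at 1275 to 1672 FPKM (counts scaled by gene length and by the total of the sample). Of 8 adipocyte markers 3, Adipoq among them, had negative and 5 positive fitted changes. Their median log2 fold change was 0.19, and 0.15 without control replicate 2. Where 3 values are given for a group, they are replicates 1, 2 and 3 in that order. Control replicate 2 stood apart through skeletal muscle transcripts, with a summed level of 10 muscle markers of 8694 FPKM, so some results are also given without it. Values given only with it can also change when it is left out. Ctsk went from -0.32 to -0.49 and Asah1 from -0.37 to -0.29 in log2 fold change. Muscle markers were also higher in the other controls, at 128 and 134 FPKM in control replicates 1 and 3 and 51.5, 13.3 and 38.9 FPKM with Rb1, and all 10 had negative fitted changes (median log2 fold change -6.92, and -2.31 without control replicate 2). Of these markers Mb, myoglobin, was listed at 0 in Rb1 replicate 3. Macrophage markers moved in the same direction. Their summed level over 15 genes was 1333, 1581 and 1204 FPKM in the controls and 771, 1077 and 1051 FPKM with Rb1, and 14 of the 15 had negative fitted changes (median log2 fold change -0.55, and -0.34 without control replicate 2). Of the defining macrophage genes, Adgre1 (F4/80) stood at 28.3 to 42.1 FPKM in controls and 13.6 to 22.1 FPKM with Rb1, and Csf1r at 41.6 to 46.4 and 21.9 to 45.2 FPKM, so macrophage transcripts were present in every sample. In bulk tissue, fewer cells of a type and less RNA per cell cannot be told apart. The part of macrophage and muscle content in the values below was not tested.

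Most of the lysosome genes had lower levels with Rb1, the cathepsins by the largest median, and no gene of the set passed the test over all genes. The 42 genes together took 1.49%, 1.37% and 1.31% of all counts in the controls, and 1.07%, 1.08% and 1.12% with Rb1. All 3 controls thus lay above all 3 Rb1 samples. Abundant genes weigh most in this share, and Ctsb, Psap and Ctsd had 60118, 54955 and 40426 counts in control replicate 1. All 42 passed the filter on low counts, and 34 had a negative and 8 a positive fitted change, where 48.7% of all tested genes were negative and 51.3% positive. In edgeR's quasi-likelihood test with Benjamini-Hochberg adjustment 0 of the 42 passed an adjusted p of 0.05 in either direction, beside 0% of all 14093 tested genes lower and 0.0071% higher. At an unadjusted p under 0.05 there were 13 lower and 0 higher, where 7.54% of all genes were lower and 4.01% higher. DESeq2, run as an alternative, gave 5 lower (Ctss, Ctsd, Ctsz, Lgmn and Cd68) and 0 higher at an adjusted p under 0.05, against a background of 2.06% lower and 0.568% higher. Without control replicate 2 DESeq2 gave 4 lower (Ctss, Ctsd, Cd68 and Atp6v0a1) and 0 higher, against a background of 1% and 0.227%. In edgeR without that library 0 passed, and 12 were lower and 0 higher at an unadjusted p under 0.05, against 5.68% and 2.65% of all genes.

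Control and Rb1 samples did not overlap in FPKM for 24 of the 42 genes, 23 of them lower with Rb1 and 1 higher. Among all tested genes 10.5% were lower without overlap and 5.48% higher. FPKM scales to the total count of a sample, and with TMM scaling, which corrects for a few abundant genes, 16 were lower without overlap and 1 higher, against 9.74% and 7.73% of all genes. The median log2 fold change over the 42 was -0.20, beside 0.01 for all tested genes, and it was -0.13 without Rb1 replicate 1. That library had the lowest value of 17 of the 42 genes and the lowest summed macrophage level, while control replicate 1 had the highest value of 26. Whether each sample is a different mouse is not stated, and the spread that the p-values rest on may then be technical.

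**Figure D1:**
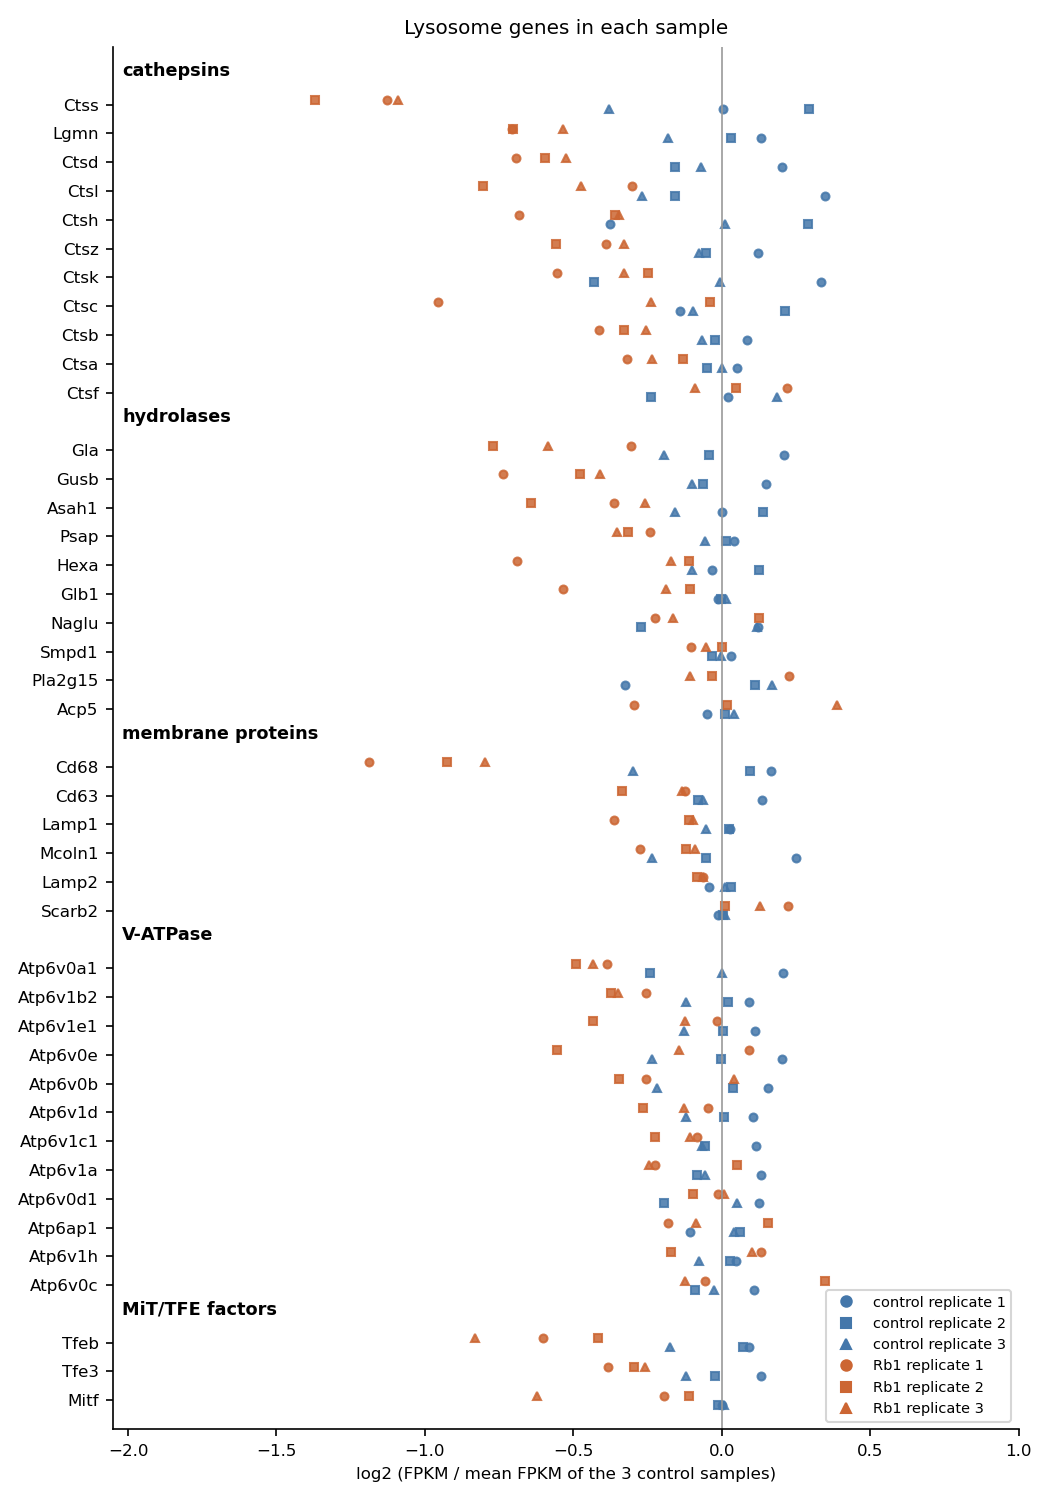
Level of each of the 42 lysosome genes in each sample, as log2 of the FPKM over the mean FPKM of the 3 control samples, grouped by role. Control samples are blue, Rb1 samples orange, and the marker shape gives the replicate. Ctss and Cd68 lie farthest to the left with Rb1, and Atp6v0a1, Atp6v1b2 and Atp6v1c1 are the pump genes with all Rb1 samples below all controls. The gap of Atp6v1c1 was narrow, and its groups overlapped with TMM scaling.

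By role, the median log2 fold change was -0.38 for the 11 cathepsins and legumain, -0.26 for the 3 MiT/TFE factors, -0.23 for the 10 hydrolases, -0.12 for the 6 membrane proteins and -0.10 for the 12 proton pump genes. Counts with an unadjusted p under 0.05 were 5 of 11, 2 of 3, 3 of 10, 1 of 6 and 2 of 12 in the same order, all of them lower. Of all tested genes 7.54% were lower and 4.01% higher at that threshold. Genes lower with Rb1 without overlap in FPKM numbered 7, 3, 6, 4 and 3, against 10.5% of all genes. With TMM scaling they numbered 7, 2, 4, 1 and 2, against 9.74% of all genes, so 3 of the 4 membrane proteins overlapped on that scale. The medians of the hydrolases and the membrane proteins rested on Rb1 replicate 1, since without it they were -0.06 and -0.02. The proton pump median was -0.06 without Rb1 replicate 1 or control replicate 1. For cathepsins the median stayed between -0.45 and -0.27 with any library left out, and for the factors between -0.38 and -0.26. The differences between role groups were not tested.

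**Figure D2:**
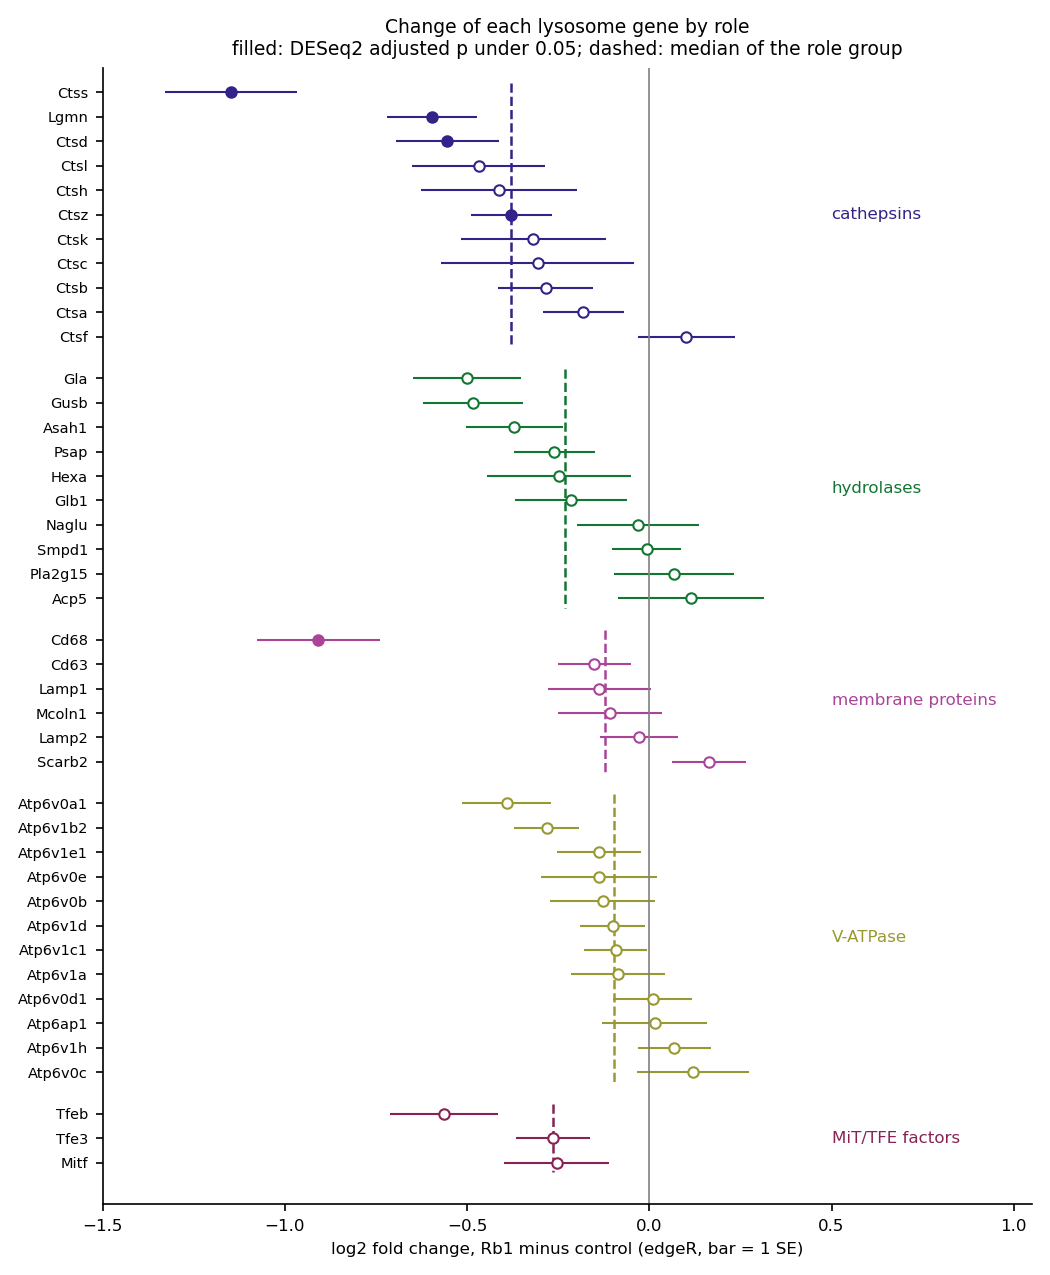
Fitted log2 fold change (Rb1 minus control) of each gene with 1 standard error from edgeR, ordered within its role group. Filled points passed in DESeq2 and dashed lines give the group medians, which run from -0.38 for the cathepsins to -0.10 for the proton pump.

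All 3 MiT/TFE factors had lower levels with Rb1, and Tfeb had the largest difference. Tfeb, the factor first linked to lysosome biogenesis, stood at 2.64, 2.61 and 2.20 FPKM in the controls and at 1.64, 1.86 and 1.40 FPKM with Rb1. Every control was above every Rb1 sample (log2 fold change -0.56, SE 0.15, edgeR adjusted p = 0.254, DESeq2 adjusted p = 0.0706), and the value stayed between -0.70 and -0.48 with any library left out. Tfe3, its close relative on the X chromosome, stood at 3.66, 3.28 and 3.07 FPKM in controls and at 2.56, 2.72 and 2.79 FPKM with Rb1, without overlap (-0.26, SE 0.10, edgeR adjusted p = 0.404). Mitf, which also drives the melanocyte and osteoclast programmes, was nearly equal in the controls at 4.05, 4.01 and 4.07 FPKM. Its Rb1 values were 3.53, 3.74 and 2.62 FPKM, so Rb1 replicate 3 was the lowest (-0.25, SE 0.14, edgeR adjusted p = 0.564, and -0.13 without that library). The groups of Mitf did not overlap in FPKM but did with TMM scaling. All 3 factors were at low levels, under the mean of every cathepsin, and their counts were still 158 or more per sample.

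Promoter sequences are shown for 4 genes to set the element that these factors bind beside the size of the difference. The 4 genes were picked by hand and do not stand for the other members. Windows from 250 bases before to 50 bases after a transcription start came from RefSeq (GRCm38.p6), and 36 of the 42 genes had 1 or more of them, 48 windows in all. The core of the CLEAR element, TCACGTG, searched on both strands, was in 12 windows of 12 genes (25% of the members' windows), beside 3.77% of all 32851 windows of the same length. The full palindromic CLEAR element, which is that core with G before it and AC after it, was in 0 of the 48 windows and in 0.326% of all. The wider E-box CACGTG, which every core contains, was in 14 windows of 14 genes, beside 7.15% of all windows. The core was found in 4 of 9 proton pump genes with a window, 3 of 9 cathepsins and legumain, 3 of 9 hydrolases, 2 of 6 membrane proteins and 0 of 3 factors. Below are the 250 bases before the start, 5' to 3' on the gene's strand, with TCACGTG matches of either strand in capitals (overlapping matches run together). Ctss (chr3:95526536-95526785, plus strand) and Cd68 (chr11:69666171-69666420, minus strand) had the largest differences and hold no match. Ctsd (chr7:142387828-142388077, minus strand) holds 2 sites, and Lamp1 (chr8:13158911-13159160, plus strand) holds 4 and had a small difference.
Ctss: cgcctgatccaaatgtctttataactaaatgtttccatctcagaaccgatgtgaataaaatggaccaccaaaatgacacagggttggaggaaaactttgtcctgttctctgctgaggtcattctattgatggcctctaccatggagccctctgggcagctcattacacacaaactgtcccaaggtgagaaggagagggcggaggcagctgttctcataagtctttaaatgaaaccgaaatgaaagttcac
Cd68: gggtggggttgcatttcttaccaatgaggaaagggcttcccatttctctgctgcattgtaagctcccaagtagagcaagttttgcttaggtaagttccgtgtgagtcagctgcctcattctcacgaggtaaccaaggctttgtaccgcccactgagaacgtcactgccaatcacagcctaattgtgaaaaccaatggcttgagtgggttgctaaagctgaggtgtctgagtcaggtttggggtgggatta
Ctsd: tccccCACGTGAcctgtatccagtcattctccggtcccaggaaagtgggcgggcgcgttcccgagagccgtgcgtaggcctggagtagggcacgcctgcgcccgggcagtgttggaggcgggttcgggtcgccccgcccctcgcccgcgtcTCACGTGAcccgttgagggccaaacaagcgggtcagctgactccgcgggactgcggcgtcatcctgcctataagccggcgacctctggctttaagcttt
Lamp1: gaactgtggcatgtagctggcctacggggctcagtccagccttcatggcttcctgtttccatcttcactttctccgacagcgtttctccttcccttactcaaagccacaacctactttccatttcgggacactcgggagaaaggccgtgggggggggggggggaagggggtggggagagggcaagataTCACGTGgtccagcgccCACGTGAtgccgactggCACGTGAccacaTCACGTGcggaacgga
Over the 12 genes with a core in a window the median log2 fold change was -0.14 (range -0.60 to 0.01), and over the 24 genes with a window and no core it was -0.25 (range -1.15 to 0.16). Genes with a core included Lgmn at -0.60 and Gla at -0.50, and also Naglu at -0.03 and Atp6v0d1 at 0.01. A match is only a run of letters, and absence from this window says nothing of sites elsewhere.

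The cathepsins had the lowest median of the role groups, and Ctss the largest difference of the 42 genes. Cathepsin S, which Ctss encodes, is a cysteine protease of antigen-presenting cells that cleaves the invariant chain of MHC class II. Ctss stood at 191, 233 and 146 FPKM in the controls and at 87.0, 73.6 and 89.2 FPKM with Rb1. The lowest control was thus above the highest Rb1 sample, a fitted difference of 2.22-fold (log2 fold change -1.15, SE 0.18, edgeR adjusted p = 0.136, DESeq2 adjusted p = 2.212e-06). Leaving out any 1 library kept the value between -1.30 and -0.96. The gene (ENSMUSG00000038642) is on the plus strand of chromosome 3 of GRCm38, positions 95526786 to 95556403, and shares no exon with another annotated gene.

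Lgmn encodes legumain, an asparaginyl endopeptidase that processes other lysosomal proteases. Its levels were 102, 95.0 and 82.02 FPKM in controls and 57.0, 57.1 and 64.2 FPKM with Rb1. The 3 Rb1 samples lay close together and below all controls (-0.60, SE 0.12, edgeR adjusted p = 0.195, DESeq2 adjusted p = 0.001279). Ctsd, which encodes the aspartic protease cathepsin D, was, with Ctsb, among the most abundant of the group at 586, 456 and 486 FPKM in controls and 315, 337 and 354 FPKM with Rb1. It too was lower in every Rb1 sample (-0.55, SE 0.14, edgeR adjusted p = 0.247, DESeq2 adjusted p = 0.007237). Lgmn (ENSMUSG00000021190) lies on chromosome 12 from 102394084 to 102439813 and Ctsd (ENSMUSG00000007891) on chromosome 7 from 142375911 to 142388038, both on the minus strand, and Ctsd shares exon positions with the predicted gene Gm49369.

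Among the other cathepsins the log2 fold changes ran from -0.47 (Ctsl) to -0.18 (Ctsa), all 7 negative, with edgeR adjusted p between 0.292 and 0.723. Of the 7 genes, 4 were lower without overlap in FPKM, against 10.5% of all tested genes. Ctsz, a carboxypeptidase of myeloid cells, was the 1 of these that passed in DESeq2 (-0.38, SE 0.11, edgeR adjusted p = 0.292, DESeq2 adjusted p = 0.0405) and was picked out for that after its values were seen. Its FPKM was 290, 257 and 253 in controls and 204, 181 and 213 with Rb1, without overlap, and its DESeq2 call was lost without control replicate 2, as was that of Lgmn. Ctsb, an abundant cysteine protease, stood at 446 to 495 FPKM in controls and 350 to 391 FPKM with Rb1, also without overlap (-0.28, edgeR adjusted p = 0.467). Ctsk, a collagen-degrading protease of osteoclasts and fibroblasts, was at 58.5 to 99.3 FPKM in controls and 53.6 to 66.3 FPKM with Rb1, so the groups overlapped. Ctsc, which activates granule proteases of leukocytes, had the lowest value in Rb1 replicate 1 (10.3 FPKM, with 16.9 to 23.1 in the other samples) and was at -0.05 without that library. Ctsf, a papain-type cysteine protease, was the exception to the direction, at 29.4 to 39.5 FPKM in controls and 32.6 to 40.4 FPKM with Rb1 (0.10, SE 0.13, edgeR adjusted p = 0.834, and 0.00 without control replicate 2).

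Within the group Ctss took a smaller share with Rb1. It made up 10.7% of the summed FPKM of the 11 proteases on average in controls and 6.67% with Rb1. Ctsb and Ctsd, the leading members, made up 26.3% and 28.6% in controls and 29.7% and 26.9% with Rb1. Together the 11 genes summed to 1962, 1725 and 1653 FPKM in the controls and to 1213, 1217 and 1312 FPKM with Rb1. Every control sum was above every Rb1 sum, and the ratio of control to Rb1 means was 1.43, beside 1.42 for the macrophage markers. Without control replicate 2 the ratios were 1.45 and 1.31. Such sums follow the most abundant genes, and Lyz2 had a control mean of 690 of the 1373 FPKM of the macrophage markers. The median log2 fold changes were -0.38 for the 11 proteases and -0.55 for the macrophage markers. Without control replicate 2 these medians were -0.40 and -0.34.

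**Figure D3:**
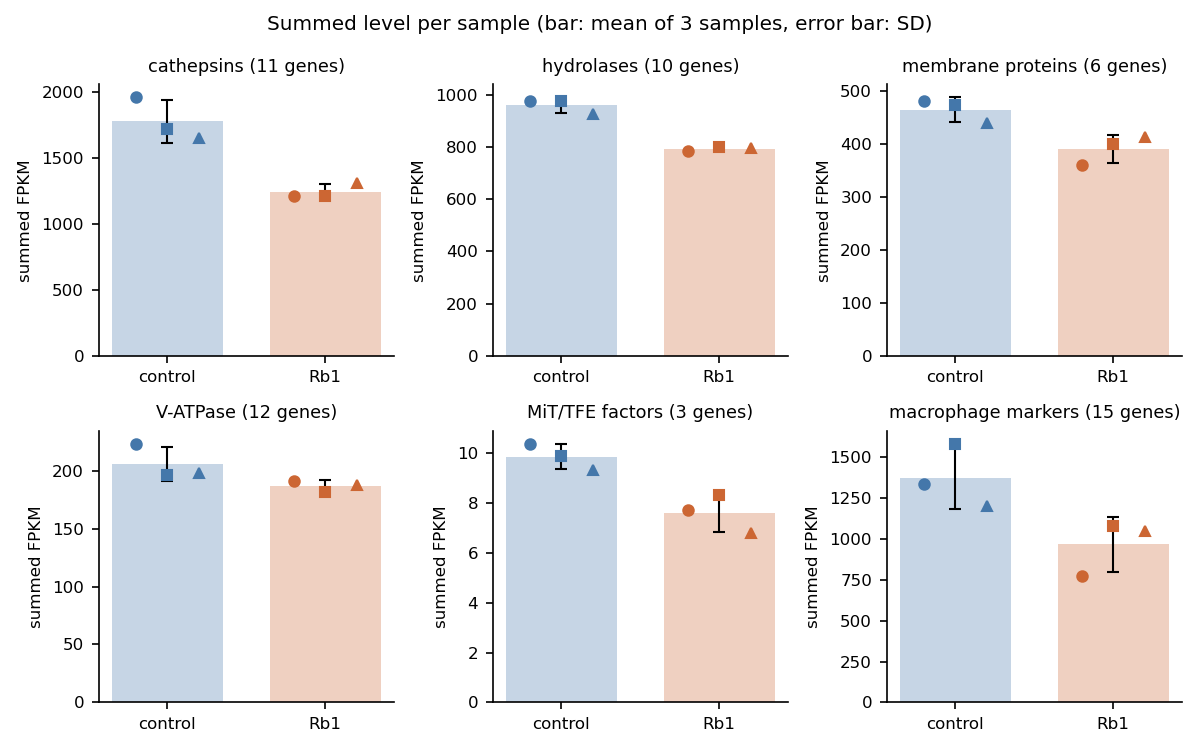
Summed FPKM of each role group, and of 15 macrophage marker genes, per sample. Bars are means of 3 samples and error bars are SDs. The cathepsin sum is 1653 to 1962 in controls and 1213 to 1312 with Rb1, and the proton pump sum is 196 to 223 and 182 to 191.

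Hydrolases of glycans and lipids split into a set with lower values and a set near 0. Gusb, beta-glucuronidase, stood at 18.0, 15.5 and 15.2 FPKM in the controls and at 9.75, 11.7 and 12.2 FPKM with Rb1. All Rb1 samples were below all controls (-0.48, SE 0.14, edgeR adjusted p = 0.278). Gla, the alpha-galactosidase missing in Fabry disease, stood at 6.05, 5.09 and 4.58 FPKM in controls and 4.24, 3.07 and 3.49 FPKM with Rb1, likewise without overlap (-0.50, SE 0.15, edgeR adjusted p = 0.292). Asah1, acid ceramidase, stood at 22.8, 25.0 and 20.4 FPKM in controls and 17.7, 14.6 and 19.0 FPKM with Rb1 (-0.37, SE 0.13, edgeR adjusted p = 0.367). Its groups did not overlap either, though control replicate 3 and Rb1 replicate 3 were close.

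Psap, the precursor of the saposins that present lipids to lysosomal enzymes, was the most abundant of the 42 genes. It stood at 720, 707 and 673 FPKM in controls and 593, 562 and 548 FPKM with Rb1, a tight and non-overlapping difference (-0.26, SE 0.11, edgeR adjusted p = 0.442, DESeq2 adjusted p = 0.058). Smpd1, acid sphingomyelinase, was nearly level at 16.2, 15.5 and 15.8 FPKM in controls and 14.7, 15.8 and 15.2 FPKM with Rb1 (-0.01, SE 0.09, edgeR adjusted p = 0.988). Leaving out 1 library put Smpd1 between -0.06 and 0.06. The other 5 hydrolases had values from -0.25 (Hexa) to 0.11 (Acp5), with edgeR adjusted p between 0.653 and 0.968. Hexa and Glb1, which degrade gangliosides and other glycans, were lowest in Rb1 replicate 1 and were at -0.05 and -0.06 without it. Acp5, the tartrate-resistant phosphatase of osteoclasts and some macrophages, ran from 49.6 to 52.8 FPKM in controls and spread from 41.9 to 67.1 FPKM with Rb1, so its groups overlapped. No hydrolase passed in DESeq2.

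Of the membrane proteins, Cd68 had the largest difference, and the general lysosome markers Lamp1 and Lamp2 had small ones. Cd68, a scavenger receptor family protein used as a macrophage marker, stood at 88.8, 84.6 and 64.4 FPKM in the controls and at 34.8, 41.7 and 45.6 FPKM with Rb1. Every Rb1 sample was below every control (-0.91, SE 0.17, edgeR adjusted p = 0.174, DESeq2 adjusted p = 0.0003998). Leaving out any 1 library kept it between -1.03 and -0.77. The gene (ENSMUSG00000018774) lies on chromosome 11 from 69664213 to 69666153 on the minus strand and shares no exon with another gene.

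Lamp1 and Lamp2 are the main glycoproteins of the lysosomal membrane in all cell types. Lamp1 stood at 285, 285 and 270 FPKM in controls and 217, 259 and 261 FPKM with Rb1, where Rb1 replicate 1 was the lowest (-0.14, SE 0.14, edgeR adjusted p = 0.776, and -0.02 without that library). Lamp2 stood at 33.5, 35.2 and 34.7 FPKM in controls and 33.0, 32.5 and 33.0 FPKM with Rb1, a narrow gap that closed with TMM scaling (-0.03, SE 0.11, edgeR adjusted p = 0.952). Cd63, a tetraspanin of late endosomes, stood at 29.2, 25.2 and 25.5 FPKM in controls and 24.5, 21.1 and 24.3 FPKM with Rb1 (-0.15, SE 0.10, edgeR adjusted p = 0.628). It was also without overlap in FPKM and with overlap under TMM scaling, and it has a processed copy, Cd63-ps, in the annotation. Scarb2, which carries glucocerebrosidase to lysosomes, was the 1 gene of the 42 higher with Rb1 without overlap, at 41.1, 41.5 and 41.7 FPKM in controls and 48.4, 41.8 and 45.3 FPKM with Rb1. Rb1 replicate 2 was only just above the controls, and the difference was small (0.16, SE 0.10, edgeR adjusted p = 0.604). Mcoln1, the calcium channel of the lysosome, was at 3.04 to 4.25 FPKM in controls and 2.95 to 3.36 FPKM with Rb1 (-0.11, edgeR adjusted p = 0.832).

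The proton pump had a median of -0.10 with all samples. Without Rb1 replicate 1 the medians of the membrane proteins (-0.02) and the hydrolases (-0.06) were as near to 0 as that of the pump (-0.06) or nearer. The pump consists of a membrane sector that conducts protons and a cytosolic sector that hydrolyses ATP. Atp6v0a1, a form of the large membrane subunit a, stood at 21.5, 15.8 and 18.6 FPKM in the controls and at 14.2, 13.2 and 13.8 FPKM with Rb1. The Rb1 samples lay together below the controls (-0.39, SE 0.12, edgeR adjusted p = 0.309, and -0.49 without control replicate 2). Atp6v1b2, the ATP-binding B subunit found in most cells, stood at 25.0, 23.9 and 21.6 FPKM in controls and 19.7, 18.1 and 18.5 FPKM with Rb1, also without overlap (-0.28, SE 0.09, edgeR adjusted p = 0.312). Atp6v1e1, part of the peripheral stalk, was at 19.2 to 22.7 FPKM in controls and 15.5 to 20.7 FPKM with Rb1 and overlapped (-0.14, SE 0.12, edgeR adjusted p = 0.706, and -0.05 without Rb1 replicate 2).

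Atp6v0d1, the widely expressed d subunit, was the most abundant pump gene and its groups overlapped. Its levels were 54.9, 44.1 and 52.2 FPKM in controls and 49.9, 47.1 and 50.6 FPKM with Rb1 (0.01, SE 0.11, edgeR adjusted p = 0.987), and with library totals in place of TMM the value was -0.03. The other 8 pump genes, among them the proton-carrying Atp6v0c and the accessory Atp6ap1, lay between -0.14 and 0.12 with edgeR adjusted p of 0.732 or more, 5 of them negative and 3 positive. No pump gene passed in DESeq2 with all samples, and Atp6v0a1 passed there without control replicate 2.

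Some pump subunits have paralogs that macrophages and osteoclasts use, and these are set beside the widely expressed forms without a test of the difference between them. Atp6v0d2, the d subunit of osteoclasts and phagocytes, stood at 41.7, 26.9 and 23.9 FPKM in the controls and at 13.4, 7.47 and 10.5 FPKM with Rb1. All Rb1 samples were below all controls, a fitted difference of 2.86-fold (-1.52, SE 0.25, edgeR adjusted p = 0.147, DESeq2 adjusted p = 3.286e-06). The ratio of Atp6v0d1 to Atp6v0d2, both in FPKM, was 1.32, 1.64 and 2.18 in controls and 3.72, 6.31 and 4.84 with Rb1. Tcirg1, the a subunit needed for bone resorption, stood at 11, 8.40 and 6.29 FPKM in controls and 6.37, 4.77 and 5.01 FPKM with Rb1, with Rb1 replicate 1 just above control replicate 3 in FPKM (-0.63, SE 0.19, edgeR adjusted p = 0.297). Atp6v0a2, a Golgi form, overlapped at 6.04 to 8.22 and 5.14 to 7.68 FPKM. For subunit a the ratios overlapped between the groups. Atp6v0a1 over Tcirg1 was 1.95, 1.88 and 2.96 in controls and 2.23, 2.78 and 2.75 with Rb1. Atp6v0a1 over Atp6v0a2 was 3.56, 2.6 and 2.26 in controls and 1.86, 2.42 and 2.68 with Rb1. Atp6v1b1, the kidney and epididymis form of subunit B, was under the filter on low counts at 0.0112 to 0.0428 FPKM and was not tested.

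**Figure D4:**
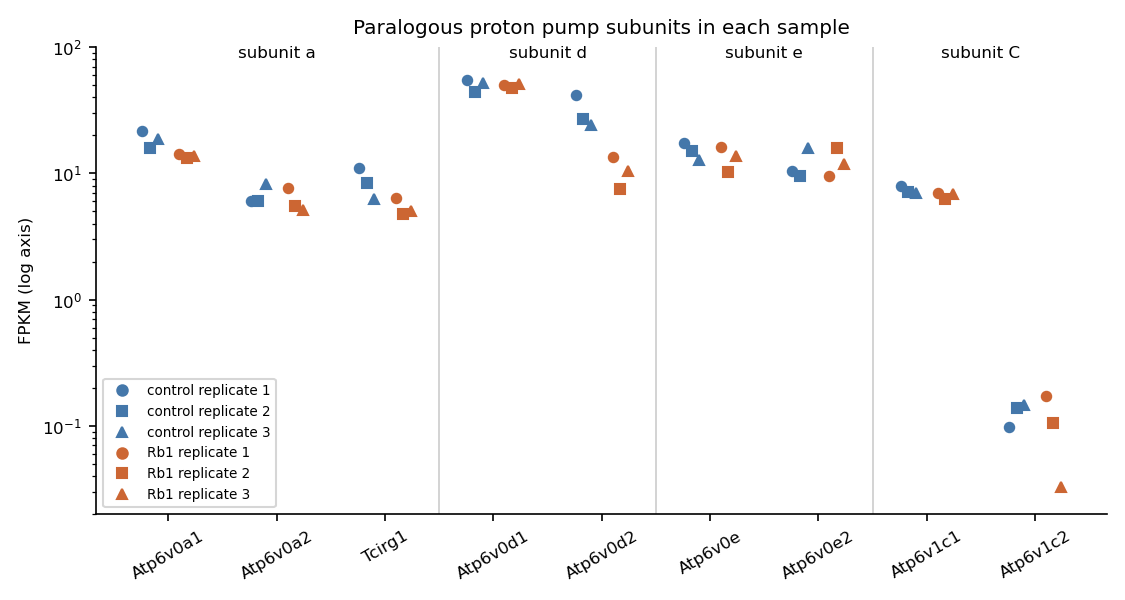
FPKM of paralogous V-ATPase subunits in each sample on a log axis, with control samples in blue and Rb1 samples in orange. Atp6v0d2 goes from 23.9 to 41.7 in controls to 7.47 to 13.4 with Rb1, while Atp6v0d1 overlaps between the groups.

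Other lysosome genes, 60 in a list drawn up beside the 42, included some with larger differences than most of the 42. The largest, of Rragd, rested mostly on control replicate 2, the library rich in muscle transcripts (-3.20, and -0.84 without it). Rragd stood at 0.58, 7.76 and 0.59 FPKM in controls and 0.33, 0.28 and 0.34 FPKM with Rb1. Of the 59 tested, 39 had negative and 20 positive values (median log2 fold change -0.09). In edgeR 0 passed over all genes in either direction, and 11 were lower and 0 higher at an unadjusted p under 0.05, against 7.54% and 4.01% of all genes. DESeq2 gave 6 lower (Lipa, Galns, Gm2a, Laptm5, Atp6v0d2 and Gpnmb) and 0 higher, against 2.06% and 0.568%. By list, the median was -0.02 for 25 hydrolases and cofactors, -0.10 for 16 membrane and sorting genes, -0.10 for 8 pump genes and -0.13 for 10 relatives and regulators of the MiT/TFE factors. These list medians depended on the libraries. With 1 library left out they ran from -0.12 (without Rb1 replicate 2) to 0.02 (without Rb1 replicate 1) for the hydrolases, with -0.09 without control replicate 2 and -0.08 without control replicate 1. For membrane and sorting genes the range was -0.12 to -0.04, the latter without Rb1 replicate 1, with -0.05 without control replicate 1. For pump genes it was -0.15 to -0.05, the former without Rb1 replicate 1 and the latter without Rb1 replicate 3. For the relatives it was -0.20 to -0.06, the former without control replicate 3 and the latter without control replicate 2, with -0.07 without Rb1 replicate 2. Without Rb1 replicate 1 the median of the 59 was -0.03, and without control replicate 3 it was -0.05.

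Lipa, lysosomal acid lipase, which frees cholesterol and fatty acids from lipoproteins and lipid droplets, stood at 88.8, 74.9 and 62.2 FPKM in controls and 49.0, 44.3 and 45.7 FPKM with Rb1. The groups did not overlap (-0.65, SE 0.13, edgeR adjusted p = 0.184, DESeq2 adjusted p = 0.000922). Galns, a sulfatase of keratan sulfate, stood at 7.69, 6.87 and 7.24 FPKM in controls and 3.79, 4.87 and 4.64 FPKM with Rb1 (-0.66, SE 0.15, edgeR adjusted p = 0.205). Gpnmb, a glycoprotein of lipid-laden macrophages, stood at 73.0, 50.8 and 56.7 FPKM in controls and 37.7, 30.7 and 26.9 FPKM with Rb1 (-0.88, SE 0.16, edgeR adjusted p = 0.168). Laptm5, a lysosomal protein of blood cells, was at 33.2 to 40.0 FPKM in controls and 21.0 to 28.3 FPKM with Rb1, also without overlap (-0.58, SE 0.16, edgeR adjusted p = 0.269). Flcn, folliculin, a regulator of Tfeb and Tfe3 location, was at 2.85 to 5.05 FPKM in controls and 2.36 to 2.996 FPKM with Rb1. Its groups overlapped in FPKM but not with TMM scaling (-0.58, SE 0.19, edgeR adjusted p = 0.328). On the other side, Sort1, the sorting receptor sortilin, was at 35.3 to 43.5 FPKM in controls and 41.3 to 50.7 FPKM with Rb1 (0.32, SE 0.15, edgeR adjusted p = 0.482), and it shares exon positions with Gm12523.

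**Figure D5:**
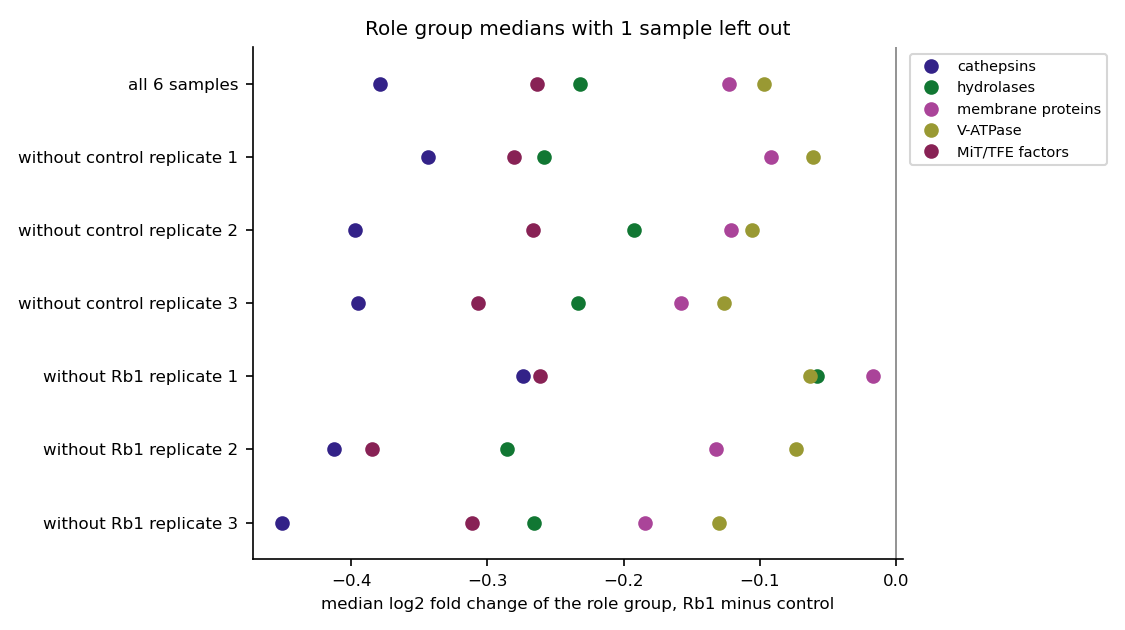
Median log2 fold change (Rb1 minus control) of each role group with all 6 samples and with each sample left out in turn. Cathepsins stay between -0.45 and -0.27, and hydrolases and membrane proteins move to -0.06 and -0.02 without Rb1 replicate 1.

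Single genes tested by an exact two-sided permutation of the 6 samples cannot go below p = 0.1, the value reached by each gene without overlap under TMM scaling. The direction held in edgeR under every scaling tried and without each library in turn for 30 genes that were lower and 2 that were higher (Scarb2 and Atp6v1h), and changed sign at least once for the other 10. Of the 42 genes, 12 share exon positions with another annotated gene, namely Ctsa, Ctsb, Ctsd, Ctsl, Ctsz, Hexa, Glb1, Acp5, Lamp1, Atp6v0b, Atp6v1e1 and Atp6v1h, and Cd63 and Atp6v0c have named pseudogenes, so reads of these may be split or shared.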

How the data were processed

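For each of 6 samples the authors deposited a raw read count and an FPKM for every Ensembl gene, per the file headers. CASAVA 1.8, TopHat2 2.0.6 and the mm10 genome are named in the submitters' processing notes. How reads were counted, with which annotation and strand setting, is not given in the sources, so reads of overlapping genes cannot be told apart. The deposited FPKM equalled the count over column total times a factor fixed for each gene (largest relative spread 0.00984% over 13169 genes). A library with much RNA of another tissue therefore shows lower FPKM elsewhere. Whether the factor is the gene length was not checked. Counts were used for tests and FPKM for levels. A symbol was given for 21933 of 22040 identifiers, among them all 42 members.

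Rb1 and control counts were compared by the quasi-likelihood test of edgeR 4.0.16 (R 4.3.3) on 14093 genes, with TMM scaling, the default filter (minimum count 10, minimum total 15), no covariates and Benjamini-Hochberg adjustment at 0.05. SEs were derived from the F statistic. The same code was tested on simulated counts. There 25% of 100 genes changed 2-fold passed, and 90% of 100 genes changed 4-fold. Alternatives were other scalings, DESeq2 1.42.0, no filter, a replicate block and leaving out each library. No 2 libraries agreed within sampling noise (chi-square per degree of freedom at least 30.4), so none was counted as a repeat of another. This check cannot tell separate mice from separate preparations. Gene positions came from GENCODE M21 on GRCm38.

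The members, lists and tests were chosen with earlier results of these data known, so counts and medians over them are descriptions. Named members were the 3 with the smallest p, the most abundant and the one with the largest p of each larger role group, and all 3 factors. Genes outside this rule were picked after their values were seen. From each list of other lysosome genes the 2 with the smallest p were named.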

Additional observations from a re-analysis of the deposited data

How the results depend on the processing

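With edgeR, 0 of the 42 genes passed under any scaling, without the filter, with the replicate block or without any library (unadjusted p under 0.05 in 11 to 16, all lower), while DESeq2 gave 5, and 4 without control replicate 2, a setting added after the data were seen. Over all genes edgeR gave 1 (1 to 4 with a library left out), DESeq2 377, and DESeq2 without control replicate 2 gave 176. The cause of the gap between the tools was not tested. With 1 library left out, medians ran from -0.27 to -0.13 for all 42 genes, -0.45 to -0.27 for cathepsins, -0.29 to -0.0584 for hydrolases, -0.18 to -0.0167 for membrane proteins, -0.13 to -0.06 for the pump and -0.38 to -0.26 for the factors. Of the members named by the rule, signs changed with a library left out for Ctsf (-0.0002003 to 0.224, negative without control replicate 2), Smpd1 (-0.0601 to 0.0585, positive without control replicate 3 at 0.00823 and Rb1 replicate 1), Lamp2 (-0.0757 to 0.0106, positive without Rb1 replicate 1) and Atp6v0d1 (-0.0723 to 0.0524, negative without control replicate 2 and Rb1 replicate 3, the latter at -0.0328), and for Atp6v0d1 with library totals alone (-0.0349). Among the other members Naglu, Pla2g15, Acp5, Mcoln1, Atp6v0c and Atp6ap1 also changed sign with a library left out. Both groups are numbered 1 to 3, and deviations of same-numbered samples from their group mean correlated at 0.136, -0.109 and 0.018. Differently numbered samples ran from -0.265 to 0.262. With 3 samples per group these correlations cannot decide whether the numbers pair samples. With the replicate block 0 members passed, with 1 gene over all, and the median of the 42 was -0.21. Every member had a count of 158 or more in every sample.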
